A study of Mus musculus with 4 samples.

Results

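The genes described here are the collagen chains (Col genes) and laminin chains (Lama, Lamb and Lamc genes) of the mouse, chosen by their gene symbols alone. They numbered 55 of the 25509 gene entries of the count table, 44 of them collagen genes and 11 laminin genes. A gene was called measurable when it held 10 or more counts in at least 2 libraries, and 20 of the 55 were measurable, 17 collagens and 3 laminins.

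Collagens are secreted proteins of alpha chains wound into a triple helix, some as homotrimers of a single gene product and some as heterotrimers of several. Laminins are cross-shaped trimers of an alpha, a beta and a gamma chain, and together with collagen IV they form the sheets of basement membranes. In the spleen these proteins lie in the reticular fibres and around the sinuses, where fibroblastic reticular cells and endothelial cells are known as their main producers.

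RNA was measured in splenocytes of 8-week-old mice that were shaved and given UVB at 100 mJ/cm2. There were 2 libraries from wild-type mice (WT) and 2 from mice labelled as Trim21 knockout. Trim21 is an E3 ubiquitin ligase that binds antibodies inside cells. All 4 libraries came from UVB-exposed mice, over 1 or 3 weeks, and the sources used here do not say which. The kind of Trim21 allele and the strain are likewise not stated there, and unexposed mice were not analysed here. The cells had been passed through a 70 µm filter. Whether each library is a separate mouse is not stated in the labels, so p-values measure the spread between these samples.

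The libraries held 36173694 to 41924885 counts. Scaled levels are given in CPM (TMM-scaled, per-million counts), and where 4 values follow each other they are those of wild-type libraries 1 and 2 and then knockout libraries 1 and 2. Trim21 had 1237 and 1912 counts in the wild-type libraries and 345 and 882 in the knockout libraries, with a fitted log2 fold change of -1.02 ± 0.42 (SE, edgeR adjusted p = 0.17). Its level was thus lower in both knockout libraries but did not pass, and these counts alone do not establish the loss that the labels give. Xist, the transcript of the inactive X chromosome, had 2 and 43526 counts in wild-type libraries 1 and 2 and 1 and 12419 in knockout libraries 1 and 2, so each genotype held 1 library of each pattern. Haemoglobin genes took 8.25% and 4.03% of counts in the wild-type libraries and 30.7% and 14.9% in the knockout libraries. The summed level of 9 neutrophil genes was 248 and 147 CPM in the wild-type libraries and 15290 and 15990 in the knockout libraries. All 9 of 9 passed the test as higher, beside 5.9% of all tested genes. Of 9 B cell genes 0 passed by edgeR, 6 had an unadjusted p under 0.05, as had 3752 of all 13532 genes tested, and their summed level was 6464 and 4991 in the wild-type and 3297 and 2560 in the knockout libraries. In such bulk libraries fewer cells of a type and less RNA per cell cannot be told apart, and the part of these shifts in the results below was not tested.

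The markers of stromal cells were uneven, some near 0 and some well counted. Pdgfra, a receptor of fibroblasts, held 0 and 8 counts in the wild-type libraries and 0 and 0 in the knockout libraries. Mgp and, from the list of other matrix genes, Lum, both matrix genes of fibroblasts, were at 0 in all 4 libraries. Ccl19, a chemokine of T cell zone reticular cells, held 25, 8, 0 and 0 counts. Pdgfra, Mgp, Lum and Ccl19 are named here after their values were seen. Of the 25 other matrix genes 3 were at 0 in all 4 libraries and 11 were measurable. Of 18 reticular fibroblast markers 7 were measurable, with a summed level of 265 and 797 CPM in the wild-type and 275 and 358 in the knockout libraries. Most of that sum was Cr2, which B cells also express, with 9952, 36365, 4592 and 12013 counts. Pi16 held 934, 458, 1803 and 2421 counts (log2 fold change 2.03 ± 0.48, adjusted p 0.0524 by edgeR). Ltbr held 589, 228, 631 and 948 (1.36 ± 0.53, adjusted p 0.153 by edgeR). These 2 were fitted higher in the knockout, and the other 5 of the 7 tested were lower. Among those 5, Cxcl12 held 68, 72, 7 and 23 counts (-1.90 ± 0.65, adjusted p 0.121 by edgeR), and is named after its values were seen. By edgeR 0 of the 7 passed, and 3 had an unadjusted p under 0.05, as had 3752 of all 13532 genes tested. Smooth muscle and pericyte markers summed to 6.03 and 5.54 in the wild-type and 4.71 and 4.56 in the knockout libraries. Of 14 endothelial markers 10 were measurable, with sums of 161 and 183 CPM in the wild-type and 106 and 100.3 CPM in the knockout libraries, most of it Pecam1, which leukocytes and platelets also carry. Of the 9 endothelial markers tested 1 passed as higher, beside 5.9% of all tested genes. It was Egfl7, with 59, 39, 196 and 195 counts. Its log2 fold change was 2.48 ± 0.55 (adjusted p 0.0429 by edgeR), a call lost without knockout library 1. The genotypes were apart for 4 of the 9 as higher and 4 as lower, beside 30.3% and 30.1% of all tested genes. The values below are given for the genes and not for a stromal cell type.

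The genes that stood out were the collagen V chains Col5a1 and Col5a3, which moved in opposite directions, and the 250 bases upstream of each start are printed here because these 2 genes carry the main difference. Col5a1 (ENSMUSG00000026837) lies on chromosome 2, GRCm38, bases 27886425 to 28039514 on the plus strand, and Col5a3 (ENSMUSG00000004098) on chromosome 9, bases 20770050 to 20815067 on the minus strand. The upstream windows, from RefSeq on GRCm38.p6, are chr2:27886175-27886424 (plus strand) and chr9:20815068-20815317 (minus strand), and hold no annotated exon base. Each is written 5′ to 3′ on the strand of its gene, and capitals mark the GC box GGGCGG on either strand.
Col5a1: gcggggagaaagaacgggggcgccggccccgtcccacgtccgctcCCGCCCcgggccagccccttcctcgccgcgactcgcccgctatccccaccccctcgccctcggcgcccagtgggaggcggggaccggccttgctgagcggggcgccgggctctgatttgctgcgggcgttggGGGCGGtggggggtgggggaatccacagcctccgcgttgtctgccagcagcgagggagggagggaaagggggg
Col5a3: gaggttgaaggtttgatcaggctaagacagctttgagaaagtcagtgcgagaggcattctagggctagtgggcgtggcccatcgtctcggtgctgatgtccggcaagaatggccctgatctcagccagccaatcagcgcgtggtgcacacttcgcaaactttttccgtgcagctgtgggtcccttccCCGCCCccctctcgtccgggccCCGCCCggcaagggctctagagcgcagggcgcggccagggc
Both windows held 2 matches of GGGCGG, a motif found in 32.7% of 32851 windows of this length. The window of Col5a1 was 76.4% G or C and that of Col5a3 62.8%. TATAAA had 0 matches in either window, against 12.4% of all windows with it, and CCAAT had 0 in that of Col5a1 and 1 in that of Col5a3. A match describes the letters only, and binding was not measured.

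Levels are given in CPM or, to compare genes, per kb of exon (CPM per kb). Over the 4 libraries the highest mean per-length levels were those of Col5a1 at 2.62, Col11a2 at 1.99, Lamc1 at 1.69 and Col14a1 at 1.45 CPM per kb. In the wild-type libraries alone the order was led by Col11a2 at 2.69 ± 0.45 and Lamc1 at 2.63 ± 0.95 CPM per kb (SD, n = 2), which did not differ beyond their spread. Col14a1 followed at 1.57 ± 0.77 and Lamb3 at 1.32 ± 0.29, also within their spread. Col5a1 was at rank 10, at 0.242 ± 0.093. In the knockout libraries Col5a1 led at 5.01 ± 0.75 CPM per kb, and Col14a1 at 1.34 ± 0.46 and Col11a2 at 1.28 ± 0.059 came next, within their spread of each other. The fibrillar chains that are textbook products of fibroblasts were low, with Col1a1 at 0.064 ± 0.026 in the wild type, far below Col11a2.

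**Figure D1:**
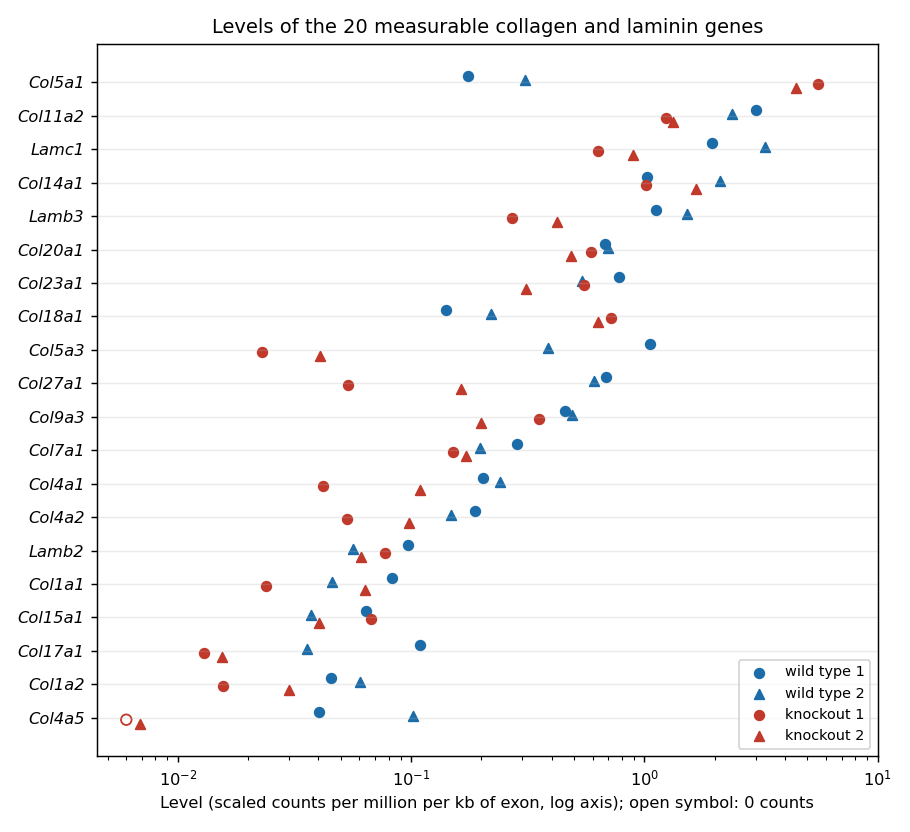
Levels of the 20 measurable collagen and laminin genes, as CPM per kb of exon on a log axis, 1 symbol per library, blue for wild type and red for knockout. Col5a1 lies at 4.48 and 5.53 in the knockout and at 0.175 and 0.308 in the wild-type libraries, and the open symbol marks 0 counts of Col4a5 in knockout library 1.

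The summed level of the 55 genes was 90.9 and 101 CPM in the wild-type and 88.5 and 86.7 CPM in the knockout libraries, while its make-up differed. Without Col5a1 the sums were 89.4 and 98.8 CPM in the wild-type and 41.5 and 48.7 CPM in the knockout libraries. The 11 laminin genes alone summed to 25.1 and 38.1 CPM in the wild type and 7.94 and 10.9 CPM in the knockout, so that the genotypes did not overlap. In unscaled counts the 55 genes held 4026 and 4739 in the wild-type and 2274 and 3746 in the knockout libraries.

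**Figure D2:**
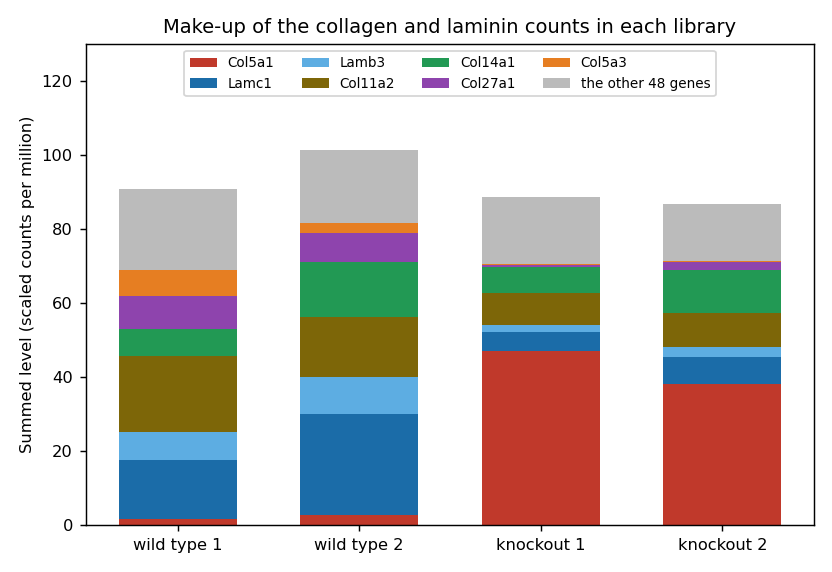
Summed level of the collagen and laminin genes in each library, in CPM, split into 7 genes and the other 48. The sums lie between 86.7 and 101, and the Col5a1 block grows from 1.49 and 2.61 in the wild-type to 47.0 and 38.0 in the knockout libraries.

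Among the 20 measurable genes, all of which entered the test, 17 had a lower and 3 a higher fitted level in the knockout. By edgeR with adjustment over 13532 genes, 1 passed as higher (Col5a1) and 1 as lower (Col5a3), where 5.9% of all tested genes passed as higher, 0.392% as lower and 6.29% in either direction. The median log2 fold change of the 20 was -0.93, beside -0.056 over all genes tested. Both knockout libraries lay below both wild-type libraries for 13 of the 20 and above for 2, and the groups overlapped for 5. Over all tested genes 30.1% lay below, 30.3% above and 60.3% apart in either direction. The tested genes had to pass a filter on low counts, so the 35 others have no part in these numbers.

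The number of calls depended on scaling and on single libraries. Scaling by library totals alone moved the median of all genes from -0.056 to -0.557 and turned the split of calls over all genes from 798 higher and 53 lower to 782 higher and 1376 lower. With it 15.9% of all genes and 6 of the 20 collagen and laminin genes passed, Col5a1 as higher and Col5a3, Col27a1, Col4a5, Lamb3 and Lamc1 as lower. Without wild-type library 1, 7 of 23 tested passed, a share near the 31% of all genes that passed there, and without wild-type library 2, 7 of 21 passed, beside 15% of all genes. Without knockout library 1 the count was 2 of 24, beside 4.44% of all genes, and without knockout library 2 it was 3 of 24, beside 7.91%. Col5a1 and Col5a3 passed in the same direction in each of the 13 alternatives run.

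**Figure D3:**
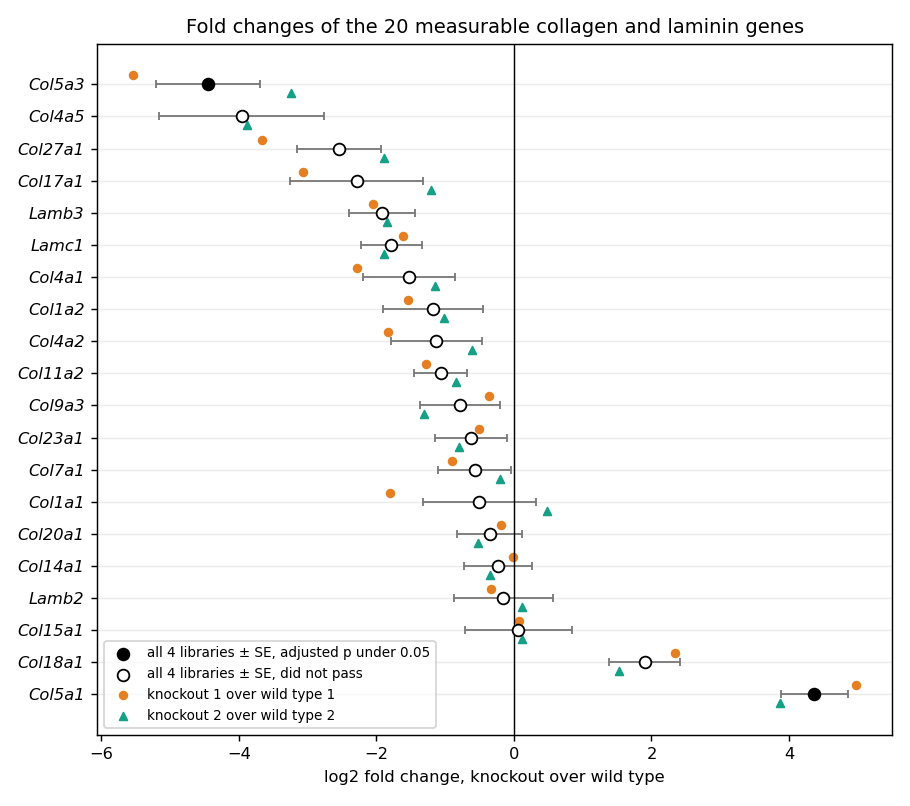
log2 fold changes of the 20 measurable genes, knockout over wild type, with circles and SE bars for the fit over 4 libraries (filled where the adjusted p was under 0.05) and small symbols for the libraries of each number (Col4a5 has none for number 1, at 0 counts). Col5a1 at 4.37 and Col5a3 at -4.45 are the filled ones, and 17 of the 20 lie below 0.

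Collagen V is a minor fibrillar collagen that starts and thins collagen I fibrils, and its usual trimer joins a pair of Col5a1 chains with Col5a2, while Col5a3 enters an alternative form. Col5a1 held 66 and 122 counts in the wild-type and 1207 and 1643 in the knockout libraries. Its level rose from 2.05 ± 0.79 to 42.5 ± 6.33 CPM (SD, n = 2), with a fitted log2 fold change of 4.37 ± 0.49 (SE, edgeR adjusted p = 0.0114). Both knockout libraries were far above both wild-type libraries, and the change was 4.98 between the libraries numbered 1 and 3.87 between those numbered 2, on the log2 scale.

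Col5a3 held 320 and 123 counts in the wild-type and 4 and 12 in the knockout libraries. Its level fell from 4.93 ± 3.25 to 0.217 ± 0.086 CPM (SD, n = 2), with a fitted log2 fold change of -4.45 ± 0.76 (SE, edgeR adjusted p = 0.0184). The wild-type libraries differed from each other but both were above both knockout libraries. Col5a2, the partner of Col5a1 in the common trimer, was not measurable, with 8, 2, 1 and 2 counts.

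The ratio of Col5a1 to Col5a3, per exon length, was 0.165 and 0.796 in the wild-type libraries (exact 95% counting intervals 0.125 to 0.216 and 0.614 to 1.03) and 242 and 110 in the knockout libraries (94.3 to 890 and 62.7 to 213). Col5a3 was thus the more abundant chain in wild-type library 1, the chains were close in wild-type library 2, and Col5a1 was in excess in both knockout libraries. The mean log2 ratio differed by 8.81 between genotypes. An exact permutation test of 2 against 2 libraries cannot give a two-sided p below 0.333, so no test is given for this or the other ratios. The ratio of Col5a1 to Col5a2 was 9.32 and 68.9 in the wild-type and 1364 and 928 in the knockout libraries, on 1 to 8 counts of Col5a2.

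Collagen XI is the cartilage relative of collagen V, and Col11a2 was the collagen with the highest level in the wild type. It held 916 and 761 counts in the wild-type and 219 and 393 in the knockout libraries, with a fitted log2 fold change of -1.07 ± 0.38 (SE, edgeR adjusted p = 0.13). The knockout libraries were both below the wild-type libraries. Its partner Col11a1 was at 0 in all 4 libraries. Taking 3 counts as what a 0 allows, Col11a2 was at least 566-fold and 470-fold higher per length than Col11a1 in the wild-type and at least 135-fold and 243-fold higher in the knockout libraries. Col2a1, which supplies another chain of collagen XI, held 5 counts in wild-type library 2 and 0 elsewhere.

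Collagen I, the bulk fibril collagen of connective tissue, was near the limit of measurement. Col1a1 held 24 and 14 counts in the wild-type and 4 and 18 in the knockout libraries, and its groups overlapped (log2 fold change -0.50 ± 0.82, adjusted p 0.713 by edgeR). Col1a2 held 25, 35, 5 and 16 counts, with both knockout libraries lower (-1.18 ± 0.73, adjusted p 0.323 by edgeR). The trimer takes a pair of Col1a1 chains for each Col1a2 chain. The Col1a1 to Col1a2 ratio per union exon length was 1.82 and 0.757 in the wild-type and 1.52 and 2.13 in the knockout libraries, with exact intervals that reached from 0.301 to 7.04 in knockout library 1. With the longest annotated transcript as length the ratios were 0.866, 0.361, 0.722 and 1.02, so which chain led depended on the gene model. The genotypes were not apart by either length. Col3a1, the homotrimer of reticular fibres, was not measurable, with 6, 23, 1 and 4 counts.

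Collagen IV makes the network of basement membranes, most often from a pair of Col4a1 chains and a Col4a2 chain. The genes lie head to head on chromosome 8 and their annotated exons overlap by 22 bases, so that few reads could be shared. Col4a1 held 67 and 84 counts in the wild-type and 8 and 35 in the knockout libraries (log2 fold change -1.53 ± 0.67, adjusted p 0.191 by edgeR). Col4a2 held 55, 46, 9 and 28 counts (-1.13 ± 0.66, adjusted p 0.299 by edgeR). Both knockout libraries were below both wild-type libraries for each gene, and neither passed. Their ratio per length was 1.08 and 1.62 in the wild-type and 0.788 and 1.11 in the knockout libraries, which overlapped.

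The Col4a3, Col4a4 and Col4a5 chains form the collagen IV of kidney and lung membranes, and of these Col4a5 alone was measurable. It held 12 and 32 counts in the wild-type libraries and 0 and 2 in the knockout libraries (log2 fold change -3.96 ± 1.2, adjusted p 0.0917 by edgeR). A fitted value on such counts depends on the prior count added to a 0. The 0 in knockout library 1 allows up to 3 counts, or 0.117 CPM. Col4a5 is X-linked, and in each genotype Xist was near 0 in library 1, whose part in these values was not tested.

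Laminins need an alpha chain to be secreted, yet of the 5 alpha chain genes 0 were measurable. Summed over Lama1 to Lama5 the counts were 30 and 12 in the wild-type and 3 and 7 in the knockout libraries. The 3 beta chain genes summed to 361 and 492 counts in the wild-type and 66 and 145 in the knockout libraries, and 2 of them were measurable. The 3 gamma chain genes summed to 720 and 1277 in the wild-type and 135 and 319 in the knockout libraries, and 1 was measurable. The laminin transcripts counted were thus nearly all those of Lamc1 and Lamb3.

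Lamc1, the common gamma chain of most laminins, held 715 and 1276 counts in the wild-type and 135 and 318 in the knockout libraries. Its level was 21.7 ± 7.9 CPM in the wild type and 6.31 ± 1.49 in the knockout (SD, n = 2), with a log2 fold change of -1.78 ± 0.45 (SE) and an adjusted p of 0.0611 by edgeR. Lamb3, the beta chain of the laminin of epithelial anchoring complexes, held 327 and 471 counts in the wild-type and 46 and 121 in the knockout libraries. Its level was 8.73 ± 1.91 and 2.3 ± 0.71 CPM, with a log2 fold change of -1.92 ± 0.48 (SE) and an adjusted p of 0.0596 by edgeR. For both genes both knockout libraries lay below both wild-type libraries, and neither passed the threshold. Without wild-type library 1 their adjusted p values were 3.71e-04 for Lamc1 and 0.00218 for Lamb3, and without knockout library 1 they were 0.491 and 0.49. Lamb2, the beta chain of vessel and muscle membranes, held 26, 16, 12 and 16 counts and overlapped between genotypes (-0.16 ± 0.72, adjusted p 0.903 by edgeR), with a sign that turned without wild-type library 1, at 0.266.

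The ratio of Lamc1 to Lamb3 per length stayed in a narrow range, 1.75 and 2.17 in the wild-type and 2.35 and 2.1 in the knockout libraries, and the genotypes did not differ beyond their spread, with a difference of 0.19 in mean log2 ratio. The ratio of Lamb3 to Lamb2 was 11.6 and 27.1 in the wild-type and 3.53 and 6.96 in the knockout libraries, which did not overlap. Lamb3 is known to pair with the alpha chain Lama3, which held at most 5 counts in a library. Lamb3 was 153-fold higher per length than Lama3 in wild-type library 2 (exact interval 65.1 to 474), and at least 177-fold, 24.9-fold and 65.5-fold higher in wild-type library 1 and knockout libraries 1 and 2, where Lama3 was at 0. Lamc1 was 42.8-fold and 351-fold higher than Lama5, the most counted alpha chain, in the wild type and 62-fold and 62.5-fold higher in the knockout.

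**Figure D4:**
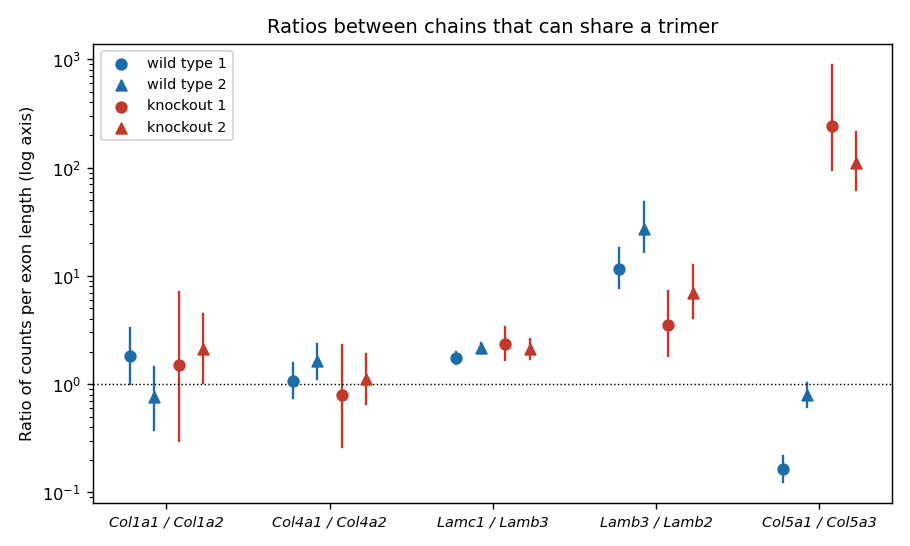
Ratios of counts per exon length between chains that can share a trimer or a position in it, on a log axis, 1 symbol per library with its exact 95% counting interval. The Lamc1 to Lamb3 ratios lie between 1.75 and 2.35, while the Col5a1 to Col5a3 ratios are 0.165 and 0.796 in the wild-type and 242 and 110 in the knockout libraries.

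Collagens that coat fibrils or link them came next. Col14a1, which binds the surface of collagen fibrils, held 318 and 694 counts in the wild-type and 183 and 503 in the knockout libraries and overlapped (log2 fold change -0.23 ± 0.49, adjusted p 0.785 by edgeR). The sign of its change turned without wild-type library 2, at 0.391. Col20a1, of the same family, held 154, 168, 78 and 108 counts (-0.35 ± 0.47, adjusted p 0.644 by edgeR). Col9a3, a chain of the cartilage collagen IX, held 78, 88, 35 and 33 counts and did not pass, and its partners Col9a1 and Col9a2 were at 0 throughout. Col9a3 was at least 20.9-fold and 23.6-fold higher per length than Col9a2 in the wild-type and at least 9.37-fold and 8.84-fold higher in the knockout libraries. The annotated exons of Col9a3 overlap those of Tcfl5, a gene on the other strand, by 234 bases (6.07% of the Col9a3 exon length). The part of such reads in the Col9a3 counts was not tested.

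Col27a1, a fibrillar collagen of cartilage, held 395 and 369 counts in the wild-type and 18 and 92 in the knockout libraries. Its level was 8.41 ± 0.72 CPM in the wild type and 1.42 ± 1.01 CPM in the knockout (SD, n = 2), with a fitted log2 fold change of -2.55 ± 0.61 (SE, edgeR adjusted p = 0.0537), just short of the threshold. Its log2 fold change was -3.57 without knockout library 2 and -1.98 without knockout library 1, where it did not pass. It passed with limma-voom (adjusted p 0.0418) and the DESeq2 Wald test (5.85e-04), where 7.08% and 19.2% of all genes passed. By edgeR it passed with library totals alone (adjusted p 0.00182) and with no filter (0.0078), beside 15.9% and 10.2% of all genes. The replicate block also called it, beside 42.2% of all genes, though the labels pair no libraries. With DESeq2 size factors (0.0596) or non-robust dispersion (0.0528) it did not pass by edgeR. Nor did it pass by edgeR at 50 counts in 2 libraries (0.0536) or without haemoglobin and mitochondrial genes (0.0554). Both knockout libraries lay well below both wild-type libraries.

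Col18a1 and Col15a1 are the basement membrane collagens whose ends can be cut to release endostatin and its relative. Col18a1 held 44 and 72 counts in the wild-type and 130 and 191 in the knockout libraries, with a fitted log2 fold change of 1.90 ± 0.51 (SE, edgeR adjusted p = 0.0721). Among the 20 measurable genes it was, with Col5a1, the other one whose knockout libraries both lay above the wild-type libraries. Its log2 fold change was 2.25 without wild-type library 2, and its adjusted p by edgeR was 0.208 with scaling by library totals alone. Col15a1 held 18, 11, 11 and 11 counts and overlapped, at a log2 fold change of 0.07 ± 0.78 that became -0.467 with scaling by library totals alone.

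The remaining measurable genes code for membrane-spanning or anchoring collagens. Col23a1, a transmembrane collagen, held 198 and 145 counts in the wild-type and 81 and 77 in the knockout libraries (log2 fold change -0.62 ± 0.53, adjusted p 0.462 by edgeR), and its scaled levels overlapped. Col17a1, the collagen of hemidesmosomes, held 29, 10, 2 and 4 counts, and Col7a1, the collagen of anchoring fibrils in skin, held 129, 95, 40 and 76. Neither passed, with adjusted p values of 0.176 and 0.498 by edgeR.

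Of the 35 genes below the measurable limit, 8 were at 0 in all 4 libraries: Col9a1, Col9a2, Col11a1, Col13a1, Col22a1, Col28a1, Lama1 and Lama4. The other 27 held at most 23 counts in a library. All 6 chains of collagen VI, the beaded filament collagen that fibroblasts make in quantity, were among them, with Col6a1 at 1, 2, 1 and 2 counts and Col6a3 at 6, 0, 3 and 0. Both chains of collagen VIII were also below the limit. Col4a6 had 0 and 2 counts in the wild-type and 11 and 2 in the knockout libraries, and Col19a1 had 3, 19, 4 and 0. With no filter on low counts 47 of the 55 genes were tested, and the 6 that passed were all among the 20 measurable ones.

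Of the 29 genes that process collagens (hydroxylases, chaperones, cross-linking enzymes and propeptide proteases), 21 were tested, 1 passed as higher and 0 as lower, with a median log2 fold change of -0.12. The gene that passed was Bmp1, the protease that trims fibrillar procollagens, with 41 and 63 counts in the wild-type and 185 and 296 in the knockout libraries. Its log2 fold change was 2.62 ± 0.49 (SE), with an adjusted p of 0.0246 by edgeR and of 0.0549 without knockout library 1. The most abundant members were general enzymes of the secretory pathway, P4hb with 10701, 6996, 7768 and 13370 counts and Ppib with 11317, 5445, 10068 and 10028, and neither passed. Serpinh1, the chaperone specific to collagen, held 40, 29, 3 and 13 counts and did not pass, and is named here after its values were seen.

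Of 15 other basement membrane genes 12 were tested, and the median log2 fold change was -0.74. By edgeR 1 passed as higher and 0 as lower, beside 5.9% and 0.392% of all tested genes. Tinagl1, a matrix protein related to a cathepsin, held 210 and 478 counts in the wild-type and 5148 and 4506 in the knockout libraries (4.35 ± 0.59, adjusted p 0.0118 by edgeR). Ntn4, a netrin that binds laminin gamma chains, held 15, 133, 450 and 809 counts (3.50 ± 0.87, adjusted p 0.0596 by edgeR). Its log2 fold change was 2.66 without wild-type library 1 but 5.73 when wild-type library 2 was left out, and it passed with any 1 of the 4 libraries left out and with limma-voom (adjusted p 0.0281). Agrn, which links laminin to the cell surface, held 415, 632, 362 and 860 counts and did not pass. Of 25 other matrix genes 10 were tested, with a median of 0.40, and 1 passed as higher, beside 5.9% of all tested genes. It was the proteoglycan Vcan, with 31, 37, 139 and 304 counts (3.06 ± 0.51, adjusted p 0.0174 by edgeR). Fn1, fibronectin, held 4005, 2858, 2041 and 5412 counts and did not pass.

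Of 18 genes for receptors of collagen and laminin 16 were tested and 0 passed by edgeR, 5 had an unadjusted p under 0.05, beside 3752 of all 13532 genes tested, and the median log2 fold change was -0.63. Itgb1, the beta subunit of the collagen and laminin integrins, was the most abundant, with 5736, 7145, 4562 and 8172 counts, and its log2 fold change of 0.38 ± 0.37 became -0.128 with scaling by library totals alone. Itga6, which forms a laminin receptor with it, held 826, 2290, 148 and 646 counts and did not pass, and is named after its values were seen. Cd36 held 930, 2482, 2837 and 3586 counts and was fitted higher in the knockout (1.38 ± 0.51, adjusted p 0.139 by edgeR). By fitted level 10 of the 16 receptor genes tested were lower in the knockout and 6 higher. Of 16 matrix proteases and inhibitors 12 were tested and 1 passed as higher, beside 5.9% of all tested genes. It was Mmp8, the collagenase of neutrophil granules, with 331 and 402 counts in the wild-type and 3097 and 7760 in the knockout libraries (4.22 ± 0.44, adjusted p 0.0114 by edgeR). It moved together with the neutrophil genes given above, and their part in it was not tested.

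Of 13 genes of the TGF-beta pathway, which is known to induce collagen genes in fibroblasts, 12 were tested, and the median log2 fold change was -1.14. By edgeR 0 passed as higher and 1 as lower, beside 5.9% and 0.392% of all tested genes. Tgfbr2, the type II receptor, held 9560 and 11563 counts in the wild-type and 1704 and 3483 in the knockout libraries (-1.66 ± 0.38, adjusted p 0.0484 by edgeR). This call was lost without knockout library 1, at an adjusted p of 0.52, without knockout library 2, at 0.209, with DESeq2 size factors, at 0.0512, and with non-robust dispersion, at 0.0525. Tgfb1, a ligand, held 13098, 7110, 4610 and 6209 counts and did not pass. T cell genes, whose cells carry much Tgfbr2, summed to 1322 and 812 CPM in the wild-type and 571 and 486 CPM in the knockout libraries, and their part in the Tgfbr2 result was not tested.

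**Figure D5:**
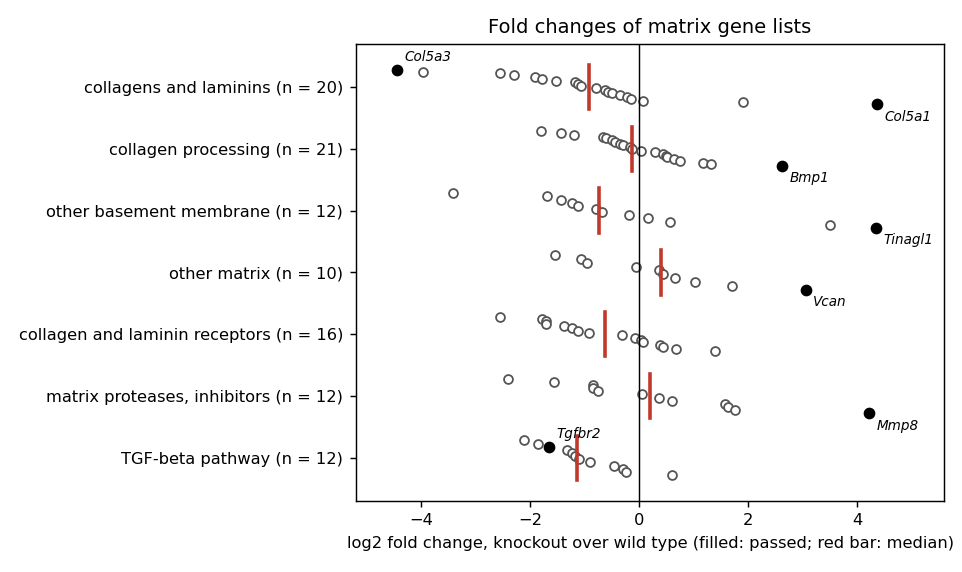
log2 fold changes, knockout over wild type, of the tested collagens and laminins and of 6 lists of related matrix genes, 1 circle per gene, filled where the adjusted p was under 0.05, with the median as a red bar. The medians run from -1.14 for the TGF-beta pathway to 0.40 for other matrix genes, with -0.93 for the collagens and laminins.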

How the data were processed

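The 4 libraries were ribodepleted, stranded and read as 75 bp single-end, per the labels' protocols. GRCm38, RSEM 1.2.25, STAR 2.5.0 and SAMtools 1.18 are listed, without their roles, in the submitters' processing notes. How strand was set and which annotation was counted is not stated in these sources. The deposited values are the authors' estimated counts per Ensembl gene, all whole numbers, so rounding changed none. The 92 spike-in entries, with 0 counts, were left out, and 25251 of 25509 genes were matched to GENCODE M21 symbols, which also gave exon lengths and positions.

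Groups came from sample titles. Counts were tested with edgeR 4.0.16 in R 4.3.3 (TMM, filterByExpr, robust quasi-likelihood F test, Benjamini-Hochberg over 13532 genes), and a gene passed at an adjusted p under 0.05. Common dispersion was 0.145 with 2 residual degrees of freedom. The fit was also run on simulated data, drawn at a lower dispersion and with equal numbers of genes raised and lowered. That run does not measure its error on these libraries. SE is the size of the log2 fold change divided by the square root of its F statistic, and not a separately fitted error. Ratios use union exon length, with exact 95% intervals that, like the 3-count floor, cover counting error only. Antisense or overlapping reads cannot be told apart where strand is unknown.

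The members and lists were chosen with earlier results of these data known. Named were every measurable member and, of each list, members that passed and the 3 of highest mean CPM. Not every one is reported, and other list genes are marked as named after their values were seen. A single gene below the measurable limit is not reported here. Alternatives were DESeq2 1.42.0 (size factors and Wald test), limma-voom (limma 3.58.1), library totals, other count filters, non-robust dispersion, a replicate block, libraries left out, no haemoglobin or mitochondrial genes, and another exon length.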

Additional observations from a re-analysis of the deposited data

How the results depend on the processing

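Col5a1 and Col5a3 passed under each of the 13 alternatives. The number of all genes passing, 851, became 2158 with library totals alone, 2497 with the DESeq2 Wald test, 1768 with no filter and 5705 with the replicate block, and ran from 631 to 4347 with 1 library left out. The number of collagen and laminin genes passing, 2, became 6 with library totals alone, 6 with the DESeq2 Wald test, 6 with no filter and 9 with the replicate block (beside 42.2% of all genes), and ran from 2 to 7 with 1 library left out. The number measurable, 20, became 13 at 10 counts in all 4 libraries and 13 at 50 counts in 2. The causes were not tested. The labels pair no libraries; deviations of same-numbered libraries correlated at 0.63 over 13532 genes, with 2 pairs. Signs turned for Col14a1 (-0.672 to 0.391 with 1 library left out, 0.0762 without knockout library 1), Col15a1 (-0.329 to 0.494, -0.271 without wild-type library 2, and -0.467 with library totals alone), Lamb2 (-0.492 to 0.266, 0.0166 without knockout library 2) and Itgb1 (-0.128 with library totals alone). Of 248 fold changes of the collagen and laminin genes under alternatives, 210 kept sign and side of the threshold, 31 gained a call and 7 changed sign. Leaving out 1 library leaves a single one in its genotype, whose spread was then taken from the other pair. Low counts left 35 genes not measurable, and whether depth or low expression set this was not tested.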
